A study of Rattus norvegicus with 16 samples.

Results

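Neuroblasts and glomus cells of the rat carotid body were compared in normoxia, as 4 arrays of sorted neuroblasts minus 4 arrays of sorted glomus cells. These are 8 of the 16 arrays of the series, chosen by their sample labels alone, so no measured value entered the choice of samples. All groups were Wistar rats of 9 to 11 weeks, with no genetic change named, and the tissue of each sample was carotid bodies of both sides, mixed. The normoxic rats were kept in ambient air. The other 8 arrays, 4 of each population, came from rats kept for 3 days in hypoxic chambers, and serve to set the normoxic differences beside those of separate samples and, in the shared fit, to estimate the spread. The dispersed cells were stained for the HNK-1 epitope and sorted, HNK-1+ cells being the neuroblasts and HNK-1- cells the glomus cells. Each array received labelled cDNA that started from 500 pg of RNA. The gate for glomus cells is thus the absence of 1 epitope, which other cells of the organ also lack. Whether the 4 arrays of a group stand for separate animals is not stated, and the p-values below therefore measure the spread between these samples only. Arrays carry the replicate numbers of the labels, 1 to 4 in each group, and where 2 sets of 4 values are given, the glomus cells come first.

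The carotid body lies at the fork of the carotid artery and senses the oxygen of arterial blood. Its glomus cells are excitable, catecholamine-filled cells of neural crest origin. Low oxygen closes their potassium channels, calcium enters, and transmitter released onto the endings of the carotid sinus nerve drives breathing. The organ also holds glia-like type II cells, vessels and immature cells of the sympathoadrenal lineage, the neuroblasts, which can mature into glomus cells. The HNK-1 epitope is a sulfated glucuronic acid on the sugar chains of neural adhesion molecules.

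The sort was checked on the genes of both labels. B3gat1, the glucuronyltransferase that builds the HNK-1 sugar, read 5.17, 5.35, 4.54 and 4.98 in glomus arrays 1 to 4 and 6.15, 5.49, 6.94 and 6.89 in neuroblast arrays 1 to 4 (log2 values, as all levels below). The groups did not overlap, although the lowest neuroblast array lay close to the highest glomus array, and the difference was 1.36 ± 0.29 (SE, 2.56-fold, adjusted p = 0.0197). Chst10, the sulfotransferase that finishes the epitope, differed by 0.04 ± 0.28 (adjusted p = 0.999) and overlapped, so 1 of the 2 measured genes of epitope synthesis passed. The catecholamine genes that define glomus cells were read in both populations. Th, tyrosine hydroxylase, the first step of catecholamine synthesis, read 12.56, 12.56, 12.76 and 12.62 in glomus cells and 12.06, 12.23, 12.4 and 12.49 in neuroblasts. All 4 neuroblast values lay below the glomus values, but the difference of -0.33 ± 0.39 did not pass (adjusted p = 0.972). The SD of Th was 0.09 and 0.19 in the normoxic groups and 1.2 in hypoxic neuroblasts, which share the fit's estimate of the spread. In the fit of the 8 normoxic arrays alone its adjusted p was 0.396. Ddc, which makes dopamine from L-DOPA, differed by -0.18 ± 0.17 (adjusted p = 0.94) and Epas1, the oxygen-regulated transcription factor HIF-2alpha, by -0.25 ± 0.2 (adjusted p = 0.889). Epas1 did not overlap either, with 12.79, 12.68, 12.74 and 12.75 in glomus cells and 12.53, 12.49, 12.47 and 12.48 in neuroblasts, and its adjusted p was 0.481 in the 8 normoxic arrays alone. Ddc overlapped. In sorted bulk samples, fewer cells of a type and less RNA per cell cannot be told apart. The call of B3gat1 was lost without glomus array 3 or 4 or neuroblast array 3 or 4, and in the fit of the 8 normoxic arrays alone and after quantile normalization (adjusted p up to 0.124 over its alternative fits).

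Of 30429 probes, 555 passed at an adjusted p under 0.05, which is 1.82%. They were 303 higher in neuroblasts (0.996% of probes) and 252 lower (0.828%). A difference of 2-fold or more was found in 443 of these. The 4 neuroblast and 4 glomus values did not overlap in 521 of the 555, against 7.39% of all probes (3.37% with neuroblasts higher and 4.03% with neuroblasts lower). The 555 were selected by their difference in these same arrays, so this separation largely follows from the selection and is no further support. With 1 probe per gene, 416 of 18166 genes passed, 2.29%, with 202 higher (1.11%) and 214 lower (1.18%). The median difference over all genes was -0.022, so the table as a whole was centred close to 0. The count depended on single arrays: it fell to 347 without glomus array 4, 348 without glomus array 3 and 353 without neuroblast array 1, and 331, 341 and 338 of those probes were among the 555. A total of 37 gene lists held 120 of the 416 genes, and the other 296 were in none of them. The list counts below describe, beside the 2.29%, 1.11% and 1.18% of all genes, and a single call in a list can lie near those shares.

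**Figure D1:**
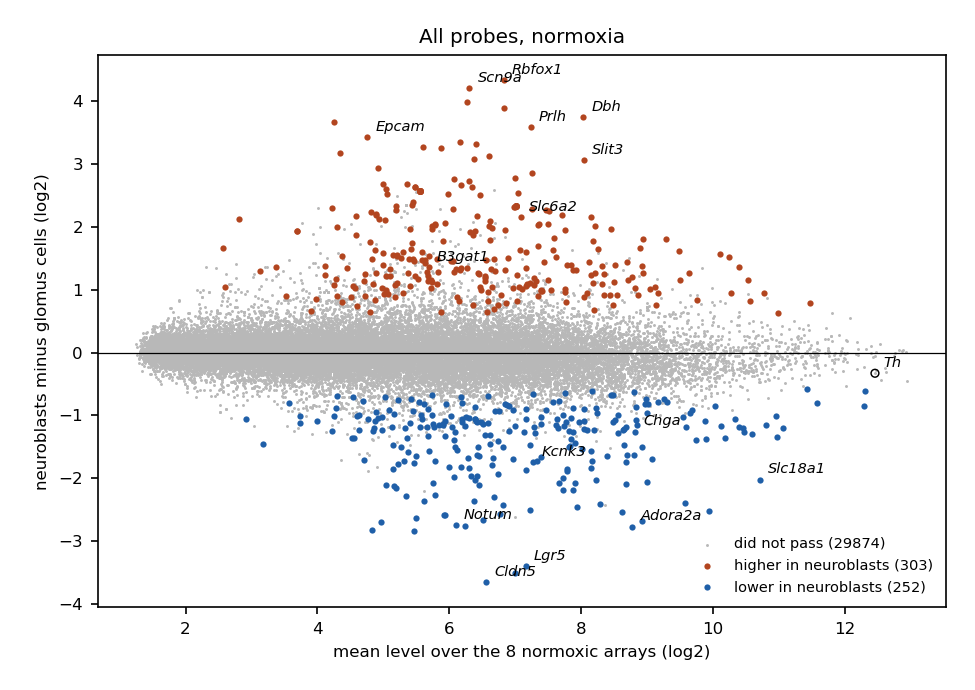
Each point is 1 of the 30429 probes, with its mean level over the 8 normoxic arrays (log2) on the x axis and the difference, neuroblasts minus glomus cells (log2), on the y axis. The 303 probes that passed as higher reach 4.33 (Rbfox1), the 252 that passed as lower reach -3.65 (Cldn5), and Th, circled, lies at -0.33 among the probes that did not pass.

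The largest rise was that of Rbfox1 and the largest fall that of Cldn5. Rbfox1, a splicing regulator of mature and maturing neurons, read 5.0, 4.39, 4.78 and 4.48 in the glomus cell arrays and 9.51, 9.42, 8.15 and 8.89 in the neuroblast arrays. Every neuroblast array was more than 3 log2 units above every glomus array, a difference of 4.33 ± 0.27 (20.1-fold, adjusted p = 3.12e-07). Cldn5 is a tight junction protein best known from vessel endothelium, and it read 8.04, 8.33, 8.53 and 8.66 in glomus cells and 4.32, 4.74, 5.51 and 4.38 in neuroblasts. The groups were far apart, and the difference was -3.65 ± 0.34 (12.6-fold lower, adjusted p = 9.5e-06). Among the 20 largest rises with an established symbol and no overlap, 15 belonged to one of the lists, and among the 20 largest falls 10 did. The 20 rises ran from 4.33 down to 2.52 and the 20 falls from -3.65 to -2.4.

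**Figure D2:**
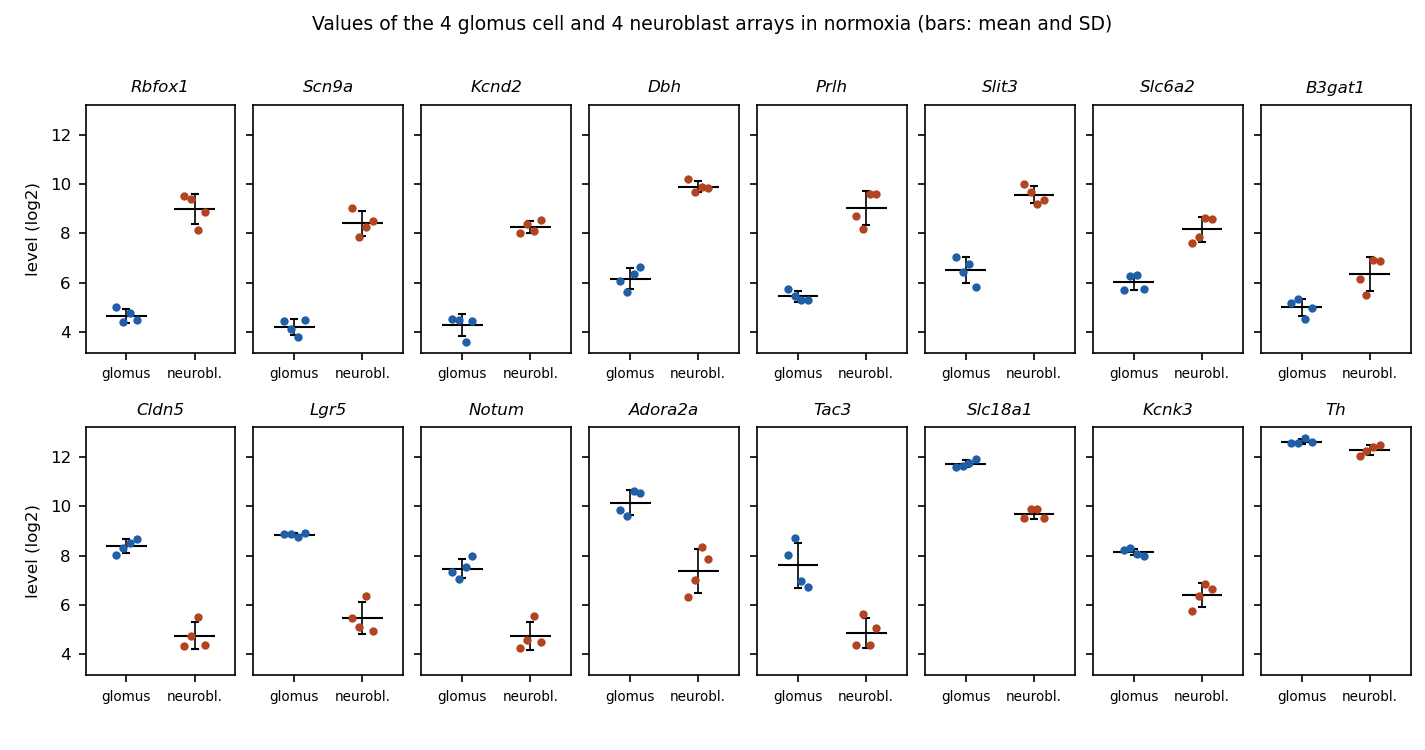
Levels (log2, y axis) of 16 genes in the 4 glomus cell arrays (blue) and the 4 neuroblast arrays (red) in normoxia, with black bars for the mean and SD. The groups do not overlap in any panel, including Th, whose difference of -0.33 did not pass, and the gap between the groups is narrowest for Th and next narrowest for B3gat1.

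Among ion channels, the voltage-gated sodium and potassium channel genes that passed were higher in neuroblasts, and 5 of the 6 background, inward rectifier and calcium-activated potassium channel genes that passed were lower. Scn9a, the sodium channel Nav1.7 of sympathetic and sensory neurons, read 4.46, 4.1, 3.79 and 4.48 in glomus cells and 9.02, 7.84, 8.26 and 8.51 in neuroblasts. The lowest neuroblast array was well above the highest glomus array, with a difference of 4.2 ± 0.29 (18.4-fold, adjusted p = 3.39e-07). It was the 1 of 11 sodium channel genes measured to pass (9.09%, against 2.29% of all genes). The median of that list was -0.17, with 8 of the 11 below 0. Scn2a, the next largest of the list, differed by 1.0 ± 0.27 (adjusted p = 0.0805). Scn7a, a sodium-level sensor outside that list, read 6.9, 5.4, 6.75 and 4.28 and 9.44, 9.29, 8.33 and 7.66, with a wide spread in the glomus arrays (2.85 ± 0.63, adjusted p = 0.0238). Of 28 voltage-gated potassium channel genes 3 rose and none fell (10.7% higher, against 1.11% of all genes). The median of these 28 was -0.07, with 17 below 0. Kcna5, the lowest of them, differed by -1.39 ± 0.36 and did not pass (adjusted p = 0.0652). Kcnd2, the A-type channel Kv4.2 that slows the approach to firing, read 4.52, 4.5, 3.61 and 4.45 in glomus cells and 8.02, 8.38, 8.09 and 8.56 in neuroblasts. These values did not come near each other (3.99 ± 0.3, 15.9-fold, adjusted p = 6.4e-07). Kcnq5, a subunit of the M current, rose by 1.38 ± 0.29 and Kcnh8 by 0.66 ± 0.16. Kcnd3, the Kv4.3 gene, was 4.13 ± 0.46 in glomus cells and 3.67 ± 0.06 in neuroblasts (mean ± SD, n = 4, adjusted p = 0.667 in limma). The count of 3 was 1 without glomus array 2 or 3 or neuroblast array 1. The call of Scn7a was lost without glomus array 2 or 4 or neuroblast array 1 or 2 (adjusted p up to 0.0996 over its alternative fits). That of Kcnq5 was lost without glomus array 2 or 3 or neuroblast array 1 (adjusted p up to 0.0725). That of Kcnh8 was lost without any 1 array other than neuroblast array 4, and after centring, in the fit of the 8 normoxic arrays alone and after quantile normalization (adjusted p up to 0.149).

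Of 27 leak, inward rectifier and calcium-activated potassium channel genes, 5 fell and 1 rose (18.5% and 3.7%, against 1.18% and 1.11% of all genes). Kcnk3, the leak channel TASK-1 that low oxygen closes in glomus cells, read 8.21, 8.31, 8.08 and 7.99 in glomus cells and 5.76, 6.37, 6.84 and 6.66 in neuroblasts. The spread was small in glomus cells and wider in neuroblasts, without overlap (-1.74 ± 0.2, 3.34-fold lower, adjusted p = 7.89e-05). Its partner Kcnk9, TASK-3, read 9.95, 9.62, 10 and 10.14 and 8.84, 9.13, 9.29 and 9.37, also without overlap, but its difference of -0.77 ± 0.22 did not pass (adjusted p = 0.104). Kcnj3, a channel opened by G protein beta-gamma subunits, fell by 1.96 ± 0.33 and Kcnn3, a small-conductance calcium-activated channel, by 1.18 ± 0.24. Both parts of the ATP-sensitive potassium channel were lower, the pore Kcnj11 by 1.09 ± 0.26 (adjusted p = 0.041) and the sulfonylurea receptor Abcc8 by 0.99 ± 0.23 (adjusted p = 0.0294). Kcnmb2, a subunit that inactivates the large calcium-activated channel, rose by 1.53 ± 0.23 (adjusted p = 0.000916). Among 30 calcium, TRP and HCN channel genes only Cacna2d2, an auxiliary calcium channel subunit, passed (3.33%, near the 2.29% of all genes). It read 9.55, 9.69, 9.85 and 9.86 in glomus cells and 7.48, 7.34, 8.17 and 7.58 in neuroblasts, and no neuroblast array came near the glomus values (-2.1 ± 0.25, adjusted p = 0.000101). Nalcn, the sodium leak channel, differed by -0.17 ± 0.2 (adjusted p = 0.971). The 5 falls were 3 without glomus array 2 or 3 or neuroblast array 4, and 2 without glomus array 4 or neuroblast array 1. The call of Kcnn3 was lost without glomus array 4 or neuroblast array 1 (adjusted p up to 0.0587 over its alternative fits). That of Kcnj11 was lost without any 1 array other than glomus array 1 or neuroblast array 3, and after centring and after quantile normalization (adjusted p up to 0.155). That of Abcc8 was lost without any 1 array other than neuroblast array 2, and in the fit of the 8 normoxic arrays alone and after quantile normalization (adjusted p up to 0.11).

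Of the catecholamine genes, the enzyme of the step to noradrenaline and the noradrenaline reuptake transporter rose, and 1 vesicular transporter fell. Dbh, which turns dopamine into noradrenaline inside the granule, read 6.06, 5.62, 6.35 and 6.63 in glomus cells and 10.22, 9.69, 9.87 and 9.84 in neuroblasts. The neuroblast arrays lay within a narrow band far above the glomus arrays (3.74 ± 0.34, 13.4-fold, adjusted p = 9.34e-06). Slc6a2, the noradrenaline reuptake transporter, read 5.72, 6.28, 6.3 and 5.74 and 7.6, 7.85, 8.63 and 8.57, again without overlap (2.15 ± 0.31, 4.45-fold, adjusted p = 0.0006). Slc18a1, the vesicular monoamine transporter VMAT1, moved the other way, with 11.59, 11.64, 11.76 and 11.91 in glomus cells and 9.51, 9.9, 9.88 and 9.52 in neuroblasts. Both groups were tight, and the difference was -2.02 ± 0.29 (4.06-fold lower, adjusted p = 0.000478). Slc18a2, VMAT2, read 7.49, 7.94, 7.86 and 8.18 and 6.79, 7.04, 7.25 and 6.44, also without overlap, and did not pass (-0.99 ± 0.28, adjusted p = 0.0888). Of the 14 genes of the list measured, 2 rose and 1 fell, and the list's median difference was -0.31.

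Of 13 dense-core granule and prohormone processing genes, 3 fell and none rose, with a median of -0.17. Chga, chromogranin A, which packs the granule core, read 9.02, 9.44, 9.54 and 9.82 in glomus cells and 8.12, 7.51, 8.46 and 8.7 in neuroblasts (-1.26 ± 0.24, adjusted p = 0.00774). Every neuroblast array was below every glomus array. Scg3, which sorts chromogranin to granules, fell by 0.79 ± 0.18 (adjusted p = 0.024) and Scg2, the precursor of secretoneurin, by 0.62 ± 0.14 (adjusted p = 0.0286), whereas Chgb differed by -0.11 ± 0.18 (adjusted p = 0.992). Of 31 synaptic vesicle genes 1 passed (3.23%, near the 2.29% of all genes). Sv2c, a vesicle membrane protein, read 5.16, 4.11, 4.73 and 4.97 in glomus cells and 8.12, 7.76, 8.2 and 8.15 in neuroblasts, with the 4 neuroblast arrays close together (3.32 ± 0.39, 9.95-fold, adjusted p = 9.74e-05). Syt1, the calcium sensor of release, differed by 0.15 ± 0.17 (adjusted p = 0.968). The 3 granule falls were 1, Chga, without any of glomus arrays 2, 3 and 4 or neuroblast arrays 1 and 2. The call of Scg3 was lost without glomus array 2, 3 or 4 or neuroblast array 1 or 2, and after centring and in the fit of the 8 normoxic arrays alone (adjusted p up to 0.106 over its alternative fits). That of Scg2 was lost without any 1 array other than glomus array 1 or neuroblast array 3, and after centring, in the fit of the 8 normoxic arrays alone and after quantile normalization (adjusted p up to 0.119).

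The promoter stretches of Dbh, which rose, and Scg2, which fell, are shown because both are textbook genes under cAMP control and moved in opposite directions. Each is the 250 bases before the gene's start in RefSeq (build GRCr8), read 5′ to 3′ on the gene's strand. Capitals mark the core of the cAMP response element, TGACG or its reverse complement CGTCA.
Dbh, chr3:30886078-30886327, plus strand: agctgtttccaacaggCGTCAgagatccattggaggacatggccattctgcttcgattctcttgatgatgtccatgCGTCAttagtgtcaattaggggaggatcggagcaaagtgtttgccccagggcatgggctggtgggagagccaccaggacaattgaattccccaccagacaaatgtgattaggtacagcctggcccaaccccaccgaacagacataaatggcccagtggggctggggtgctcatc
Scg2, chr9:88256867-88257116, minus strand: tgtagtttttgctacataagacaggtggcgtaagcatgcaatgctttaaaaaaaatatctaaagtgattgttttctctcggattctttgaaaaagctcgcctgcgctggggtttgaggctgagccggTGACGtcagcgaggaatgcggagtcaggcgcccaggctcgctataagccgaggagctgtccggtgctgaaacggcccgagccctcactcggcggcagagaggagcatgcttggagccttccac
The 2 matches of Dbh began 234 and 174 bases before the start and the match of Scg2 began 123 bases before it. In Scg2 the TGACG core lies inside the full palindrome TGACGTCA, which 1.59% of all 33469 promoters of the table hold, against 18.2% that hold the TGACG core. Of the named 20 rises, 18 had a promoter in the table and 3 held a TGACG core (Dbh, Prlh and Slit3), and of the 20 falls 14 had one and 1 held it (Lrrc55). A match describes the letters only.

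The populations differed in 1 neuropeptide each way out of 35 precursors measured (2.86% each way, against 1.11% higher and 1.18% lower for all genes). Prlh, the precursor of prolactin-releasing peptide, read 5.74, 5.45, 5.29 and 5.29 in glomus cells and 8.69, 8.2, 9.6 and 9.62 in neuroblasts. The glomus arrays were tight and the neuroblast arrays spread over more than 1 log2 unit above them (3.58 ± 0.4, 12-fold, adjusted p = 5.55e-05). Tac3, the neurokinin B precursor, read 8.04, 8.7, 6.97 and 6.74 and 4.37, 5.65, 4.36 and 5.06, lower in every neuroblast array (-2.75 ± 0.36, 6.74-fold lower, adjusted p = 0.000263). Npy differed by 0.4 ± 0.2 (adjusted p = 0.611).

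Receptors for peptides and transmitters were mostly higher in neuroblasts where they passed. Sctr, the secretin receptor, read 5.1, 4.33, 4.36 and 4.15 in glomus cells and 7.63, 8.03, 7.55 and 8.12 in neuroblasts, groups that did not approach each other (3.35 ± 0.27, 10.2-fold, adjusted p = 1.42e-06). Npy1r, a receptor for neuropeptide Y, rose by 2.16 ± 0.31 (adjusted p = 0.00057), and Gipr, the receptor for the gut hormone GIP, fell by 1.18 ± 0.29 (adjusted p = 0.0449). With these 3, 31 of 34 peptide receptor genes did not pass. Of 54 small transmitter and purine receptor genes, 6 rose and 1 fell, with a median of -0.01. The risers were the muscarinic receptors Chrm1 (1.55 ± 0.18) and Chrm3 (1.47 ± 0.19), the nicotinic subunits Chrna3 (1.66 ± 0.3) and Chrna7 (0.94 ± 0.23), the GABA-B subunit Gabbr1 (1.43 ± 0.26) and the serotonin receptor Htr2a (1.59 ± 0.36). Chrm1 read 4.51, 4.54, 4.36 and 4.33 in glomus cells and 6.18, 5.86, 5.96 and 5.95 in neuroblasts, with little spread in either. Adora2a, the adenosine receptor that raises cAMP in glomus cells, read 9.85, 9.63, 10.61 and 10.54 in glomus cells and 6.34, 7.0, 8.34 and 7.88 in neuroblasts. It was lower in every neuroblast array (-2.77 ± 0.41, 6.81-fold lower, adjusted p = 0.000712). Grik3, a kainate receptor subunit outside these lists, read 4.9, 4.48, 4.44 and 4.94 and 7.41, 6.29, 7.9 and 8.2 (2.76 ± 0.34, adjusted p = 0.000142). Gpr139, an orphan receptor also outside them, read 8.69, 8.49, 8.96 and 8.86 and 3.8, 5.17, 6.8 and 5.17, high and even in glomus cells and scattered in neuroblasts (-3.52 ± 0.41, 11.4-fold lower, adjusted p = 9.05e-05). The second Htr2a probe gave 0.82 (adjusted p = 0.318). The call of Gipr was lost without any 1 array other than glomus array 1, and after centring, in the fit of the 8 normoxic arrays alone and after quantile normalization (adjusted p up to 0.17 over its alternative fits). That of Chrna7 was lost without any 1 of the 8 arrays, and after centring (adjusted p up to 0.154). That of Htr2a was lost without any 1 array other than glomus array 1 or neuroblast array 2, and after quantile normalization (adjusted p up to 0.119).

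Of 52 G protein, cAMP and RGS genes, 5 fell and 1 rose. Gnas, which encodes the stimulatory alpha subunit and overlapping imprinted transcripts, read 5.85, 6.92, 6.03 and 6.47 in glomus cells and 3.41, 3.17, 4.34 and 3.59 in neuroblasts on the brighter probe. Every glomus array was above every neuroblast array (-2.69 ± 0.28, 6.45-fold lower, adjusted p = 2.81e-05), while its second probe gave -1.14 (adjusted p = 0.0529). Gngt2, a G protein gamma subunit, read 5.65, 6.02, 6.49 and 6.81 and 3.33, 3.2, 4.21 and 2.96, again without overlap (-2.82 ± 0.3, 7.05-fold lower, adjusted p = 3.03e-05). Rgs2, which shortens Gq signals, fell by 1.85 ± 0.34, Pde1b, a calcium-dependent phosphodiesterase, by 1.11 ± 0.24, and Gng8, another gamma subunit, by 0.84 ± 0.19. Rgs7, a neuronal regulator of Gi and Go, rose by 1.83 ± 0.25 (adjusted p = 0.000384). Of 25 calcium sensor and calcium-binding genes, 1 rose and 2 fell. Camk4, a calcium-dependent kinase of the neuronal nucleus, read 5.1, 5.49, 4.65 and 4.13 in glomus cells and 7.99, 7.1, 7.48 and 7.45 in neuroblasts, without overlap (2.66 ± 0.27, 6.33-fold, adjusted p = 2.21e-05). Hpcal1, a membrane-binding calcium sensor, read 9.93, 10.08, 10.5 and 10.53 and 6.65, 6.91, 8.79 and 7.96, lower in every neuroblast array although these spread over about 2 log2 units (-2.68 ± 0.41, 6.42-fold lower, adjusted p = 0.00102). Pcp4, a calmodulin-binding peptide, fell by 2.36 ± 0.27 (adjusted p = 7.89e-05). The 5 falls of the G protein list were 3 without glomus array 3 or 4 or neuroblast array 1. The call of Pde1b was lost without glomus array 3 or 4 or neuroblast array 1 or 2, and in the fit of the 8 normoxic arrays alone (adjusted p up to 0.0805 over its alternative fits). That of Gng8 was lost without any 1 array other than neuroblast array 2 (adjusted p up to 0.127).

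Among the lists with more than 2 genes measured, that of immature neuron genes had the largest share of rises: 9 of 32 passed as higher and none as lower (28.1% against 1.11% of all genes), with a list median of 0.46. The lists were drawn up with earlier results of these data known, so this share describes and is no separate support. Stmn2, which destabilises microtubules in growth cones, read 9.38, 9.47, 9.39 and 9.69 in glomus cells and 10.76, 10.66, 11.51 and 11.07 in neuroblasts. The groups did not overlap (1.52 ± 0.2, 2.86-fold, adjusted p = 0.000274). Its relative Stmn4 rose by 2.28 ± 0.35, the endosomal protein Nsg2 by 2.26 ± 0.27 and the tubulin Tubb2b by 2.17 ± 0.3. Dcx, doublecortin, the usual marker of migrating neuroblasts, read 6.06, 5.72, 5.88 and 5.61 in glomus cells and 6.49, 6.94, 7.14 and 7.72 in neuroblasts. Its values did not overlap (1.25 ± 0.26, 2.39-fold, adjusted p = 0.0155). The neurofilament Nefl rose by 1.63 ± 0.26, and the membrane proteins Basp1 and Marcksl1 by 1.01 ± 0.2 and 0.88 ± 0.17. Sox4, described with the transcription factors below, completes the 9. Gap43, another growth cone protein, differed by 0.12 ± 0.15 (adjusted p = 0.975), and a second Tubb2b probe by 0.01 (adjusted p = 0.999). Of 27 neuronal RNA-binding genes Rbfox1 alone passed (3.7%, near the 2.29% of all genes). Its relative Rbfox2 differed by 0.43 ± 0.23 (adjusted p = 0.648) and Elavl4, the HuD gene, by 0.84 ± 0.31 (adjusted p = 0.28). The call of Dcx was lost without glomus array 4 or neuroblast array 4 (adjusted p up to 0.0624 over its alternative fits).

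**Figure D3:**
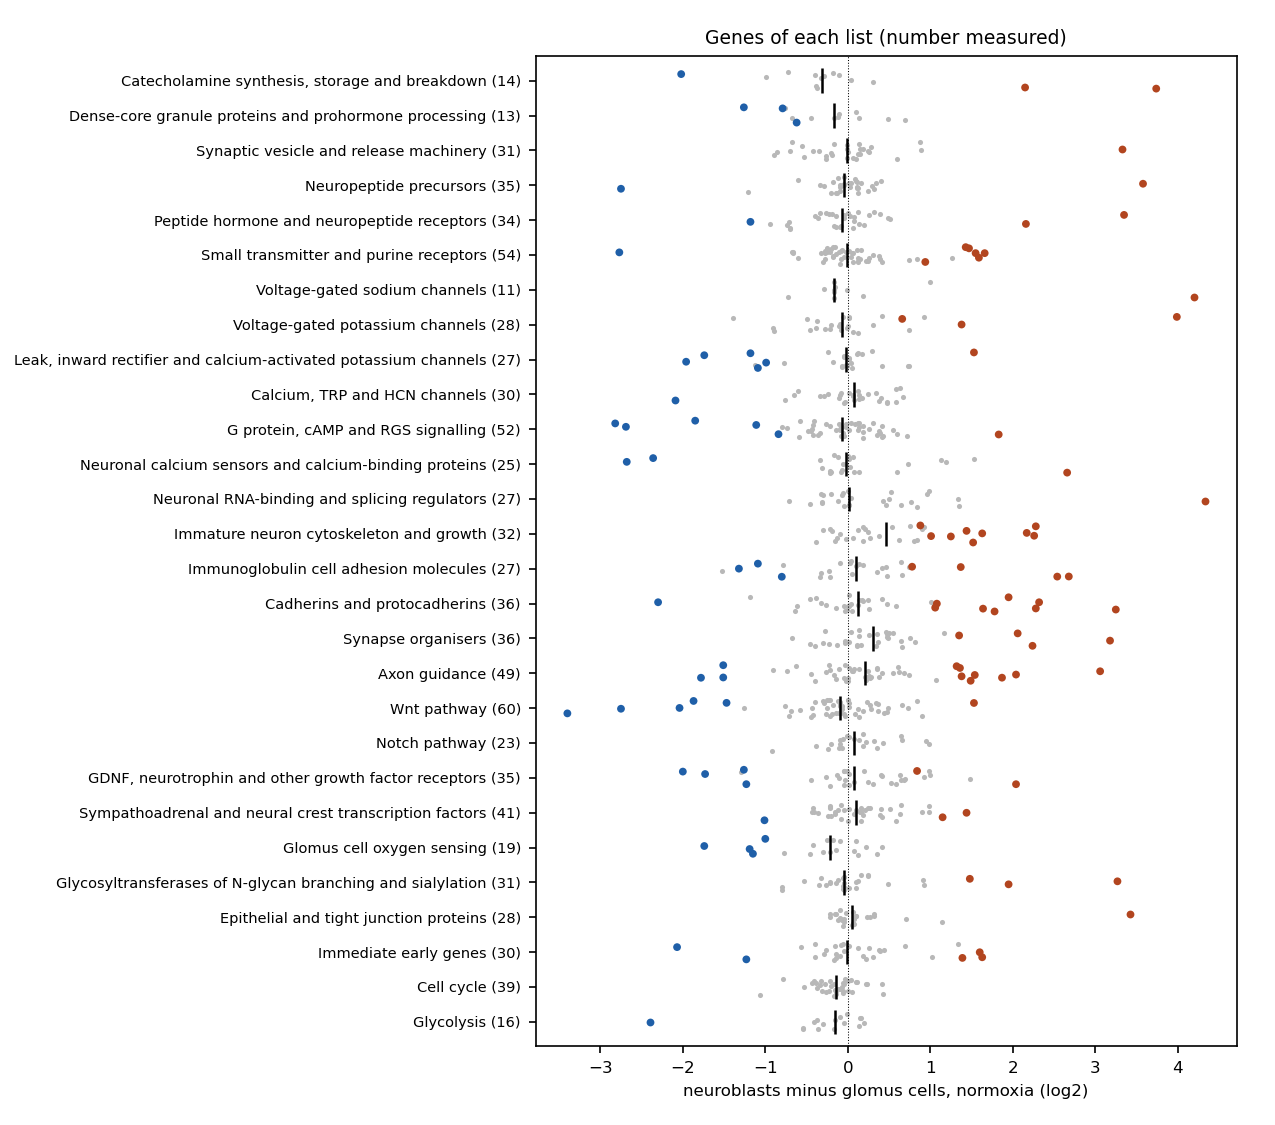
Each point is a gene of a list, placed by its difference between neuroblasts and glomus cells in normoxia (log2, x axis), with the number of genes measured beside the list's name, grey for genes that did not pass, red for 1 that passed as higher and blue for 1 that passed as lower. Black ticks are list medians, and among the lists drawn, which leave out the 8 marker lists of other cells and the 2 genes of epitope synthesis, that of the immature neuron list, 0.46, lies farthest to the right, with 9 red points and no blue one.

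Of 41 transcription factors of the sympathoadrenal lineage and neural crest, 2 rose and 1 fell. Of the 2 rises, Sox4 was already counted among the immature neuron genes. Sox4, a factor of newly born neurons, read 6.88, 6.78, 6.88 and 6.32 in glomus cells and 8.31, 8.46, 7.92 and 7.94 in neuroblasts, without overlap (1.44 ± 0.2, adjusted p = 0.000415). Tbx20, a T-box factor, rose by 1.15 ± 0.16 (adjusted p = 0.000466) and Gata3, a sympathoadrenal factor, fell by 1.01 ± 0.24 (adjusted p = 0.0341). Hand2 differed by -0.43 ± 0.25 (adjusted p = 0.724) and Phox2a by 0.27 ± 0.23 (adjusted p = 0.898), both with overlapping groups. The call of Gata3 was lost without any 1 array other than glomus array 2 or neuroblast array 2, and after quantile normalization (adjusted p up to 0.141 over its alternative fits).

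Of 36 cadherins and protocadherins 8 rose and 1 fell (22.2% higher, 2.78% lower). Cdh7, a type II cadherin of the neural crest, read 4.32, 4.7, 3.97 and 4.04 in glomus cells and 6.57, 7.78, 7.8 and 7.88 in neuroblasts. Neuroblast array 1 was lower than the other 3 but still above every glomus array (3.25 ± 0.3, 9.51-fold, adjusted p = 8.11e-06). Fat4 rose by 2.32 ± 0.3, Cdh6 by 2.28 ± 0.35, Pcdh19 by 1.95 ± 0.26, Pcdh17 by 1.78 ± 0.27, Pcdh15 by 1.64 ± 0.17, Pcdh9 by 1.08 ± 0.25 and Clstn2 by 1.06 ± 0.25, all members of the same superfamily. Cdh9, a synaptic type II cadherin, fell by 2.3 ± 0.4 (adjusted p = 0.00303). Of 27 immunoglobulin adhesion genes 4 rose and 3 fell. Ncam2 read 3.75, 3.67, 3.61 and 3.59 in glomus cells and 6.7, 5.68, 6.28 and 6.69 in neuroblasts, the glomus values nearly equal (2.68 ± 0.37, 6.42-fold, adjusted p = 0.000399). Mcam, CD146, a molecule shared by pericytes and endothelium, read 7.1, 5.14, 6.36 and 4.49 and 8.39, 8.61, 7.97 and 8.3, with wide scatter in the glomus arrays (2.54 ± 0.44, adjusted p = 0.00312). L1cam rose by 1.37 ± 0.32 and Cadm1 by 0.78 ± 0.16, and Ntm, Alcam and Thy1 fell by 1.32 ± 0.21, 1.09 ± 0.25 and 0.8 ± 0.18. The 4 rises of this list were 2 without glomus array 4 or neuroblast array 4, and the 3 falls were 1 without glomus array 3 or 4 or neuroblast array 1 or 2. The call of Pcdh9 was lost without any 1 array other than neuroblast array 3, and in the fit of the 8 normoxic arrays alone (adjusted p up to 0.0913 over its alternative fits). That of Clstn2 was lost without any 1 array other than glomus array 1 or neuroblast array 2, and after centring, in the fit of the 8 normoxic arrays alone and after quantile normalization (adjusted p up to 0.104). That of L1cam was lost without any 1 of the 8 arrays, and after centring (adjusted p up to 0.0957). That of Alcam was lost without glomus array 3 or 4 or neuroblast array 1, 2 or 4, and after centring and in the fit of the 8 normoxic arrays alone (adjusted p up to 0.131). That of Thy1 was lost without glomus array 2, 3 or 4 or neuroblast array 1 or 2, and after centring (adjusted p up to 0.0914). That of Cadm1 was lost without glomus array 4 or neuroblast array 4 (adjusted p up to 0.0757).

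Of 36 synapse organisers 4 rose and none fell, with a median of 0.3. Ntng1, netrin-G1, a membrane-anchored cue of presynaptic axons, read 2.9, 2.43, 2.63 and 3.06 in glomus cells and 5.74, 5.99, 5.43 and 6.57 in neuroblasts. No value of one group came within 2 log2 units of the other (3.18 ± 0.23, 9.05-fold, adjusted p = 3.39e-07). Tenm2 rose by 1.35 ± 0.18 and Flrt3 by 2.06 ± 0.34, both partners of latrophilins. Ptprd, a receptor phosphatase, read 3.81, 3.98, 3.59 and 3.41 in glomus cells and 5.27, 7.83, 5.38 and 5.26 in neuroblasts, where array 2 stood far above the others (2.24 ± 0.48, adjusted p = 0.0191), and a second probe gave 0.22 (adjusted p = 0.928). Of 49 axon guidance genes 8 rose and 3 fell. Slit3, a secreted ligand of Robo receptors, read 7.03, 6.42, 6.76 and 5.81 in glomus cells and 10, 9.7, 9.21 and 9.37 in neuroblasts, without overlap (3.06 ± 0.31, 8.37-fold, adjusted p = 2.32e-05). Its relative Slit2 rose by 1.54 ± 0.2, and the receptors Robo1 and Robo2 differed by -0.21 ± 0.18 and -0.74 ± 0.22 (adjusted p = 0.914 and 0.137). The ephrin receptor Epha4 rose by 2.04 ± 0.24 and Epha7 by 1.49 ± 0.24, while Epha8 fell by 1.51 ± 0.24. Sema3d rose by 1.87 ± 0.24, Sema6d by 1.32 ± 0.23, the semaphorin receptor Plxnd1 by 1.38 ± 0.3 and the netrin receptor Unc5c by 1.36 ± 0.27. The semaphorin receptor Nrp2 fell by 1.78 ± 0.25 and Sema5a by 1.51 ± 0.36. The call of Ptprd was lost without glomus array 3 or 4 (adjusted p up to 0.0705 over its alternative fits). That of Plxnd1 was lost without glomus array 2 or 4 or neuroblast array 1 or 2 (adjusted p up to 0.076). That of Sema5a was lost without any 1 of the 8 arrays, and after centring (adjusted p up to 0.132).

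Among 363 microRNA genes with a probe of their own 2 passed (0.551%, against 2.29% of all genes, with 1 probe per gene), both as higher in neuroblasts. They were singled out after their values were seen. Mir218-2, which lies within Slit3, read 2.78, 3.4, 4.19 and 2.83 in glomus cells and 6.6, 4.65, 5.18 and 4.77 in neuroblasts (2.0 ± 0.46, 4-fold, adjusted p = 0.028). Neuroblast array 1 was highest, and the groups did not overlap. Mir218-1, within Slit2, read 4.42, 4.41, 4.44 and 4.74 and 5.1, 4.36, 5.12 and 4.72, overlapping (0.32 ± 0.22, adjusted p = 0.819). Mir138-2, within the interval of Slc12a3, read 5.16, 4.07, 4.67 and 5.03 and 6.52, 6.26, 5.7 and 5.54 (1.27 ± 0.26, adjusted p = 0.0144). A probe placed on such a gene reads cDNA of the locus, host transcript included, and cannot tell a mature microRNA from it. The mature sequences (RefSeq, GRCr8) are shown because these are the only microRNA genes that passed, with the seed, bases 2 to 8, in capitals.
rno-miR-218a-5p, chr10:20572547-20572567: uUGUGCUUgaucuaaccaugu
rno-miR-218a-2-3p, chr10:20572589-20572610: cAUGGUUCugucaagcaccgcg
rno-miR-138-5p, chr19:10680184-10680206: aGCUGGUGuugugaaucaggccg
rno-miR-138-2-3p, chr19:10680139-10680159: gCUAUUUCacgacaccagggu
No 2 of these 4 share a seed. The call of Mir218-2 was lost without glomus array 1, 2 or 4 or neuroblast array 1 (adjusted p up to 0.112 over its alternative fits). That of Mir138-2 was lost without glomus array 2 or 3 or neuroblast array 1 or 2 (adjusted p up to 0.0647).

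Sugar-chain enzymes rose in 3 of 31 cases and fell in none (9.68% higher, against 1.11% of all genes). The median of that list was -0.05, with 18 of the 31 below 0. Mgat4c, an N-glycan branching enzyme, read 3.64, 4.48, 3.78 and 3.97 in glomus cells and 6.97, 6.74, 7.62 and 7.62 in neuroblasts, without overlap (3.27 ± 0.34, 9.65-fold, adjusted p = 2.88e-05). St8sia2, which adds polysialic acid to NCAM in the developing nervous system, read 6.09, 5.64, 5.86 and 6.16 in glomus cells and 7.76, 6.97, 7.53 and 7.41 in neuroblasts. All neuroblast arrays were higher (1.48 ± 0.19, 2.79-fold, adjusted p = 0.000205). St8sia1, which makes ganglioside GD3, rose by 1.95 ± 0.27 (adjusted p = 0.000415). Ncam1, the main carrier of polysialic acid, differed by 0.04 ± 0.22 (adjusted p = 0.999). Of 28 epithelial and tight junction genes Epcam alone passed (3.57%, near the 2.29% of all genes). It read 3.12, 3.38, 2.93 and 2.76 in glomus cells and 5.74, 6.29, 7.06 and 6.8 in neuroblasts. This adhesion molecule of epithelia and stem cells was higher in every neuroblast array (3.42 ± 0.43, 10.7-fold, adjusted p = 0.000149).

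Wnt genes that passed were mostly lower in neuroblasts: 5 of 60 fell and 1 rose (8.33% and 1.67%), with a list median of -0.1. Lgr5, the R-spondin receptor of stem cells and a Wnt target, read 8.86, 8.88, 8.77 and 8.92 in glomus cells and 5.45, 5.12, 6.36 and 4.92 in neuroblasts. The glomus arrays were almost identical and every neuroblast array was more than 2 log2 units lower (-3.4 ± 0.25, 10.5-fold lower, adjusted p = 4.94e-07). Notum, a secreted enzyme that inactivates Wnt ligands, read 7.32, 7.06, 7.53 and 7.98 and 4.25, 4.59, 5.55 and 4.51, without overlap (-2.75 ± 0.29, 6.72-fold lower, adjusted p = 3.03e-05). Axin2, the feedback inhibitor that Wnt signals induce in most tissues, read 9.4, 9.36, 9.3 and 9.47 in glomus cells and 7.68, 7.85, 8.12 and 8.0 in neuroblasts, both groups tight (-1.47 ± 0.15, 2.77-fold lower, adjusted p = 2.92e-05). Nkd1, another feedback inhibitor, fell by 1.87 ± 0.22 and the Wnt receptor Fzd5 by 2.04 ± 0.23. Sostdc1, a secreted antagonist, rose by 1.53 ± 0.24 (adjusted p = 0.00139). Lgr4, the close relative of Lgr5, differed by 0.48 ± 0.21 (adjusted p = 0.472).

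The promoters shown are those of the feedback inhibitors Axin2 and Nkd1, the 2 among the fallen Wnt genes found to hold the TCF/LEF core. They are the 250 bases before the start (RefSeq, GRCr8), with the TCF/LEF core CTTTGA, or TCAAAG on the other strand, in capitals.
Axin2, chr10:94398535-94398784, plus strand: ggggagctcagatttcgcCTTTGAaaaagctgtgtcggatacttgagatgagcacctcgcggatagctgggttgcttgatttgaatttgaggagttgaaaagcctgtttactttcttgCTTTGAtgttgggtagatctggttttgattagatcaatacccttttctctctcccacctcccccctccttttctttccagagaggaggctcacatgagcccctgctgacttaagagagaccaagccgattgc
Nkd1, chr19:34722847-34723096, minus strand: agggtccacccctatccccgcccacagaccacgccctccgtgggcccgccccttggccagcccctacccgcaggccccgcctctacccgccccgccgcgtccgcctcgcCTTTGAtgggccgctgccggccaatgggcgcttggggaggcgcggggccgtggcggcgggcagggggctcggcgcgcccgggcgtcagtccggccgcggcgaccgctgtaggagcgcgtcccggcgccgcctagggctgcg
Axin2 held 2 matches, beginning 232 and 132 bases before the start, and Nkd1 held 1, beginning 141 bases before it. Of the 5 Wnt genes that fell, 3 had a promoter in the table, and 2 of these 3 held the core. Those 2 are the promoters shown, so the match in them is no separate result, and the other, without a match, is not shown. The core was in 13.9% of all promoters, in 3 of the 18 found for the named rises (Ncam2, Scn9a and Sv2c) and in 1 of the 14 found for the falls (Lyz2). The words describe these letters, with no reading of binding.

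Growth factor receptors and ligands passed in 6 of 35 cases, 4 lower and 2 higher. Ret, the signalling receptor for GDNF, read 8.33, 8.49, 9.08 and 8.99 in glomus cells and 6.49, 6.25, 7.32 and 6.85 in neuroblasts, and Gdnf itself read 5.98, 5.99, 6.11 and 6.66 and 4.03, 4.41, 5.14 and 4.25. Both were lower in every neuroblast array (Ret -2.0 ± 0.34, adjusted p = 0.00294, and Gdnf -1.73 ± 0.3, adjusted p = 0.00364). Gfra1, the co-receptor, differed by 0.63 ± 0.3 with overlap (adjusted p = 0.534). The neurotrophin receptors Ntrk3 and Ngfr fell by 1.26 ± 0.21 and 1.23 ± 0.23. Cntfr, the receptor for ciliary neurotrophic factor, rose by 2.04 ± 0.34 and the sorting receptor Sorcs1 by 0.84 ± 0.19. None of 23 Notch pathway genes passed in limma, where 2.29% of all genes did, so a list of this size can hold none at that share. An unadjusted p under 0.05 was found in 5 of them and in 11.5% of all genes, and 1 passed as higher with array weights. Notch1 differed by 0.32 ± 0.32 (adjusted p = 0.945). The call of Sorcs1 was lost without any 1 array other than neuroblast array 2 or neuroblast array 3 (adjusted p up to 0.113 over its alternative fits).

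Genes tied to oxygen sensing passed only as lower, 4 of 19, with a median of -0.22. Besides Kcnk3 they were mitochondrial. Cox4i2, the cytochrome oxidase isoform of oxygen-sensing cells, read 11.05, 10.94, 11.02 and 10.96 in glomus cells and 9.51, 9.8, 9.95 and 9.95 in neuroblasts. Both groups were tight and more than 0.9 log2 units apart (-1.19 ± 0.17, 2.28-fold lower, adjusted p = 0.000591). Pc, pyruvate carboxylase, which feeds the citric acid cycle, fell by 1.15 ± 0.25 (adjusted p = 0.024). Ndufa4l2, a HIF-induced respiratory chain protein, fell by 1.0 ± 0.21 (adjusted p = 0.0168). Of 16 glycolysis genes Pfkp alone passed, a phosphofructokinase that read 10.56, 10.57, 11.03 and 10.98 in glomus cells and 7.86, 8.44, 9.01 and 8.23 in neuroblasts (-2.4 ± 0.29, 5.28-fold lower, adjusted p = 0.000103). All neuroblast values were below the glomus values. Slc2a1, the glucose transporter GLUT1, differed by -0.17 ± 0.21 (adjusted p = 0.975). The 4 oxygen-sensing falls were 2 without glomus array 3 or neuroblast array 1 or 2. The call of Pc was lost without any 1 array other than glomus array 2 or neuroblast array 3, and after centring (adjusted p up to 0.0906 over its alternative fits). That of Ndufa4l2 was lost without glomus array 3 or neuroblast array 1 or 2 (adjusted p up to 0.0756).

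Of 30 immediate early genes, which cell dispersal can also induce, 3 rose and 2 fell. Myc read 4.94, 4.69, 4.67 and 4.83 in glomus cells and 6.32, 6.27, 6.68 and 6.25 in neuroblasts, without overlap (1.6 ± 0.18, 3.03-fold, adjusted p = 7.1e-05). Nr4a2, also a dopamine neuron factor, rose by 1.39 ± 0.27 and the stress factor Atf3 by 1.63 ± 0.38. Arc, an activity-induced synaptic protein, fell by 2.07 ± 0.44 and Dusp6, a brake on ERK signals, by 1.23 ± 0.2. Fos differed by 0.19 ± 0.21 (adjusted p = 0.965). None of 39 cell cycle genes passed in limma, where 2.29% of all genes did, so a list of this size can hold none at that share. An unadjusted p under 0.05 was found in 3 of them and in 11.5% of all genes, and 2 passed as lower with array weights. Mki67 was 4.71 ± 0.39 in glomus cells and 4.48 ± 0.43 in neuroblasts (mean ± SD, n = 4, adjusted p = 0.973 in limma). The call of Atf3 was lost without glomus array 3 or 4 or neuroblast array 1 or 2, and in the fit of the 8 normoxic arrays alone and after quantile normalization (adjusted p up to 0.127 over its alternative fits). That of Arc was lost without glomus array 1 or 3 or neuroblast array 1 (adjusted p up to 0.0805).

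Several leading genes stood outside the lists. Among the rises were Sidt1, a transmembrane protein (3.13 ± 0.22), Fxyd1, a regulator of the sodium pump (2.77 ± 0.41), and Plppr5, a membrane protein of neurite growth (2.52 ± 0.47). Fxyd1 read 6.85, 4.91, 6.25 and 4.46 in glomus cells and 8.42, 9.03, 8.22 and 7.89 in neuroblasts, with wide scatter in the glomus arrays. Among the falls were Apoc1, an apolipoprotein (-2.53 ± 0.28), Il20ra and Il18rap, cytokine receptor chains (-2.54 ± 0.27 and -2.57 ± 0.31), Pcsk6, a proprotein convertase (-2.5 ± 0.26), and Car2, carbonic anhydrase II (-2.43 ± 0.29). Lamc3, a laminin chain, Hspb6, a small heat shock protein, Lrrc55, a subunit of large calcium-activated channels, and Cfap206, a cilium protein, differed by -2.45 ± 0.24, -2.4 ± 0.34, -2.66 ± 0.32 and -2.64 ± 0.35. Apoc1 read 10.89, 11.4, 11.24 and 11.3 in glomus cells and 8.29, 8.44, 9.9 and 8.09 in neuroblasts, without overlap. B2m, the light chain of MHC class I, read 10.18, 9.64, 9.97 and 9.9 and 8.0, 8.44, 8.68 and 7.77, also without overlap (-1.7 ± 0.2, 3.25-fold lower, adjusted p = 9.74e-05). It was picked out after its value was seen.

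All 27 macrophage markers lay below 0 in neuroblasts and 8 passed as lower, with a list median of -1.1 against -0.022 for all genes. Their summed linear level was 896 to 5100 in the glomus arrays and 528 to 761 in the neuroblast arrays, and without Cd74 and C1qa, the brightest members, 705 to 2868 and 448 to 598. Lyz2, lysozyme, read 8.54, 6.32, 7.1 and 5.58 in glomus cells and 4.74, 3.74, 4.06 and 3.67 in neuroblasts, and the complement gene C1qa read 9.12, 6.68, 7.48 and 6.38 and 5.5, 5.53, 5.54 and 5.2. Glomus array 1 was highest for both, and no neuroblast array overlapped the glomus arrays (Lyz2 -2.83 ± 0.5, adjusted p = 0.00377, and C1qa -1.97 ± 0.43, adjusted p = 0.0227). The others were C1qb, C1qc, Csf1r, Fcer1g, Ctss and Cd4, with differences of -1.48, -0.98, -2.13, -1.72, -1.7 and -2.16. Without glomus array 1, 4 of the 27 passed and the median was -0.79. The count was 2 without glomus array 3 or neuroblast array 4, 3 without neuroblast array 2, 4 without neuroblast array 3 and 12 without glomus array 4. The table has no detection calls, so whether a low value is above background is not known, and no marker is listed at 0. The part of macrophage RNA in the other falls was not tested. The call of C1qa was lost without glomus array 3 or neuroblast array 1, 2 or 4, and in the fit of the 8 normoxic arrays alone and after quantile normalization (adjusted p up to 0.0727 over its alternative fits). That of Cd4 was lost without any 1 array other than glomus array 2 or glomus array 4, and with array weights, in the fit of the 8 normoxic arrays alone and after quantile normalization (adjusted p up to 0.125). That of Fcer1g was lost without glomus array 1 or 3 or neuroblast array 2, 3 or 4, and in the fit of the 8 normoxic arrays alone and after quantile normalization (adjusted p up to 0.105). That of Ctss was lost without any 1 array other than glomus array 4 (adjusted p up to 0.0987). That of C1qc was lost without glomus array 1 or 3 or neuroblast array 2, 3 or 4, and in the fit of the 8 normoxic arrays alone (adjusted p up to 0.11). That of Csf1r was lost without glomus array 3 or neuroblast array 4, and in the fit of the 8 normoxic arrays alone (adjusted p up to 0.0605).

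Of 18 endothelial markers 16 lay below 0, with a median of -0.59, and Cldn5 alone passed. The list's summed level was 736 to 1762 in glomus cells and 358 to 544 in neuroblasts. Without Cldn5 itself the sums were 402 to 1499 and 337 to 517, which overlap, as do the list's mean log2 levels (4.67 to 5.99 in glomus cells and 4.22 to 4.7 in neuroblasts). Without glomus array 2 the number that passed was 3 and without glomus array 4 it was 2. Cdh5, VE-cadherin, read 6.93, 5.1, 6.25 and 4.35 in glomus cells and 4.29, 5.44, 4.11 and 4.05 in neuroblasts (-1.18 ± 0.49, adjusted p = 0.399). Flt1, a VEGF receptor, read 6.13, 4.1, 5.76 and 4.37 and 4.1, 4.25, 3.41 and 3.44 (-1.29 ± 0.4, adjusted p = 0.157). Both varied by more than 2 log2 units between glomus arrays and overlapped between groups, while Cldn5 varied by less than 1 there. The part of vessel cells in the Cldn5 difference was not tested beyond these values.

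Fibroblast markers set neuroblast array 2 apart. Their summed level was 7846 in that array and 1018 to 1510 in the other 3 neuroblast arrays, against 1220 to 2198 in glomus cells. Dcn, decorin, read 8.21, 4.76, 6.53 and 5.78 in glomus cells and 5.23, 10.43, 5.89 and 5.4 in neuroblasts, with array 2 far above the rest (0.42 ± 1.07, adjusted p = 0.999). Of 17 markers Gsn rose (1.08 ± 0.27) and Fn1, fibronectin, fell (-2.08 ± 0.48), both with overlapping groups. Fn1 read 8.81, 8.95, 8.35 and 8.69 and 5.6, 8.78, 6.35 and 5.77, so array 2 alone reached the glomus values. The list's median was 0.75, and 0.23 without neuroblast array 2, where 401 of all probes passed, 374 of them among the 555. The call of Gsn was lost without glomus array 2, 3 or 4 or neuroblast array 2 or 4, and in the fit of the 8 normoxic arrays alone and after quantile normalization (adjusted p up to 0.191 over its alternative fits). That of Fn1 was lost without any 1 array other than neuroblast array 2, and in the fit of the 8 normoxic arrays alone and after quantile normalization (adjusted p up to 0.129).

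Of 20 markers of type II and glial cells 2 rose and 1 fell, with a median of 0.12. Their summed level was 2543 to 2733 in glomus cells and 1919 to 2491 in neuroblasts. Pmp22 and Mbp made up 41.0% of it, and without them the sums overlapped (1503 to 1651 and 1095 to 1545). The mean log2 level of the list overlapped too, at 5.4 to 5.82 in glomus cells and 5.66 to 6.04 in neuroblasts. In the hypoxic arrays it did not overlap, at 5.64 to 5.91 in glomus cells and 6.02 to 6.53 in neuroblasts. Gpm6b, a glial and neuronal membrane protein, read 5.29, 3.98, 5.58 and 4.24 in glomus cells and 6.87, 7.43, 6.55 and 6.38 in neuroblasts (2.04 ± 0.38, adjusted p = 0.00601), and the other 2 were Sostdc1 and Ngfr. Sox10, the factor that defines this lineage, differed by 0.39 ± 0.19 (adjusted p = 0.569), and in hypoxia by 0.62 ± 0.19 (adjusted p = 0.248). Pericyte and smooth muscle markers summed to 9599 to 10689 in glomus cells and 6637 to 7865 in neuroblasts, where 1 of 13 rose (Mcam) and 1 fell (Ndufa4l2), which is also on the oxygen-sensing list. Rgs5 and Ndufa4l2 made up 93.5% of that summed level, and the other 11 markers summed to 247 to 514 in glomus cells and 526 to 1398 in neuroblasts, the opposite order. Of the 13, 9 lay above 0. Rgs5, a pericyte marker, differed by -0.44 ± 0.15 (adjusted p = 0.244). The median of that list was 0.33, and -0.02 without neuroblast array 2. Peripheral neuron markers summed to 4869 to 5073 in glomus cells and 5141 to 5723 in neuroblasts, of which Snap25 and Prph made up 94.2%. Without these 2 the sums were 254 to 305 and 306 to 332, in the same order and barely apart. The median of that list was -0.01. Nefl, already counted among the immature neuron genes, alone passed of its 16. None of 17 T and NK cell markers and none of 4 erythroid markers passed in limma, with 0 and 1 at an unadjusted p under 0.05. Lists this short can hold no call at the 2.29% of all genes. What these cells contribute to the differences above was not tested.

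**Figure D4:**
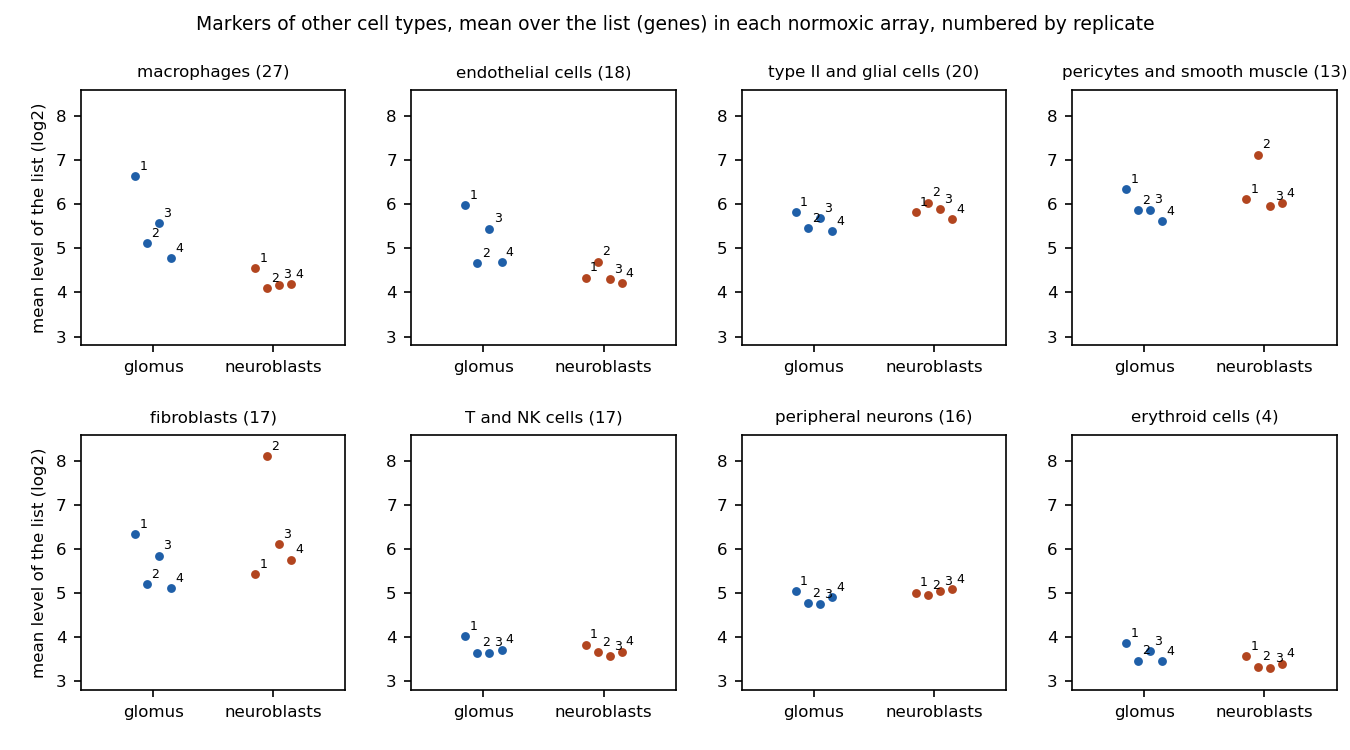
Mean level (log2, y axis) of each list of markers of other cell types in every normoxic array, numbered by replicate, with the number of genes beside the list's name. Glomus array 1 stands at 6.65 for macrophages, above the 4.1 to 4.56 of the neuroblast arrays, and neuroblast array 2 at 8.11 for fibroblasts, above all other arrays.

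The same difference was then read in the 8 hypoxic arrays, which share no sample with the normoxic ones but were fitted together with them. Of all probes 0.283% (86) passed there. Of the 555 normoxic calls 492 (88.6%) had the same sign in hypoxia, against 55.9% of all probes, and 46 passed in both, which is 8.29% of the normoxic and 53.5% of the hypoxic calls. All 46 had the same sign. The 555 were selected by their normoxic values, whose median size was 1.35, and their median hypoxic difference in the normoxic direction was 0.52. Of the 20 rises, 19 stayed above 0, 10 did not overlap and 8 passed, and of the 20 falls all 20 were below 0, 17 did not overlap and 6 passed. Over all probes 4.48% did not overlap in hypoxia, 2.27% with neuroblasts higher and 2.21% with neuroblasts lower. Single genes passed in both in 40 cases, 17 higher and 23 lower.

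Dbh differed by 2.44 ± 0.34 in hypoxia (adjusted p = 0.00348), Rbfox1 by 2.51 ± 0.27 (0.000702), Prlh by 2.67 ± 0.4 (0.00512) and Mgat4c by 2.63 ± 0.34 (0.00175). Fxyd1 and Camk4 rose there too, by 2.31 ± 0.41 and 1.72 ± 0.27. Cldn5 differed by -2.82 ± 0.34 (0.00149), Gngt2 by -2.46 ± 0.3, Gnas by -1.99 ± 0.28, Notum by -1.7 ± 0.29 and Lyz2 by -3.15 ± 0.5. Other genes that passed in both were Cnr1, the cannabinoid receptor CB1, at -2.37 in normoxia and -1.07 in hypoxia, and Tmeff2, a membrane protein of the nervous system, at 2.3 and 1.93. Prom1, a stem cell surface protein, gave 0.96 and 1.25. Slc18a1, Slc6a2 and B3gat1 gave -0.68 ± 0.29, 0.98 ± 0.31 and 0.31 ± 0.29 in hypoxia and did not pass there. The macrophage markers C1qa, C1qb, C1qc, Ctss, Fcer1g and Lyz2 were among those that passed in both. So were Gpm6b of the type II and glial list, at 2.04 in normoxia and 2.24 in hypoxia, and Fn1 of the fibroblast list, at -2.08 and -2.6.

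The 2 differences themselves were compared by the interaction, which 24 probes passed (0.0789%). Of these, 21 were among the 555, and in all 21 the difference was smaller in hypoxia. Since the 555 were chosen by normoxic arrays that the interaction also uses, that shared direction is no separate evidence. They name 16 genes, and 5 of the 21 name none. Ntng1 read 2.9, 2.43, 2.63 and 3.06 and 5.74, 5.99, 5.43 and 6.57 in normoxia, as above, and 2.77, 2.78, 3.35 and 3.24 in hypoxic glomus cells and 2.68, 2.91, 2.78 and 2.94 in hypoxic neuroblasts. Its difference went from 3.18 to -0.21 ± 0.23, with overlapping hypoxic groups (adjusted p of the interaction = 0.000166). Kcnd2 read 4.09, 4.15, 4.1 and 4.28 in hypoxic glomus cells and 3.7, 5.05, 4.88 and 5.53 in hypoxic neuroblasts, where its neuroblast level was lower than in any normoxic neuroblast array (0.64 ± 0.3, interaction 0.00292). Cdh7 and Sctr gave 0.07 ± 0.3 and 0.29 ± 0.27 in hypoxia (interaction 0.00398 and 0.00282). Scn9a still passed in hypoxia at 1.49 ± 0.29 (interaction 0.012). On the side of the falls, Lgr5 read 9.24, 8.8, 8.99 and 9.29 in hypoxic glomus cells and 7.64, 8.3, 7.94 and 8.18 in hypoxic neuroblasts. Its hypoxic neuroblast level lay above every normoxic neuroblast array while the glomus levels were similar, and the difference was -1.06 ± 0.25 (interaction 0.0123). Kcnk3 gave -0.14 ± 0.2 (interaction 0.0462). After centring each array on its median 11 probes passed the interaction and 9 of the 16 genes kept their call: Chodl, Sidt1, Cdh7, Dpyd, Ntng1, Scn9a, Kcnd2, Srgap1 and Sctr. Those of Kcnk3 and Lgr5 were among the 7 lost. Without hypoxic neuroblast array 1 the calls of Nav2, Dpyd, Sema3d and Pcdh19 were lost.

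**Figure D5:**
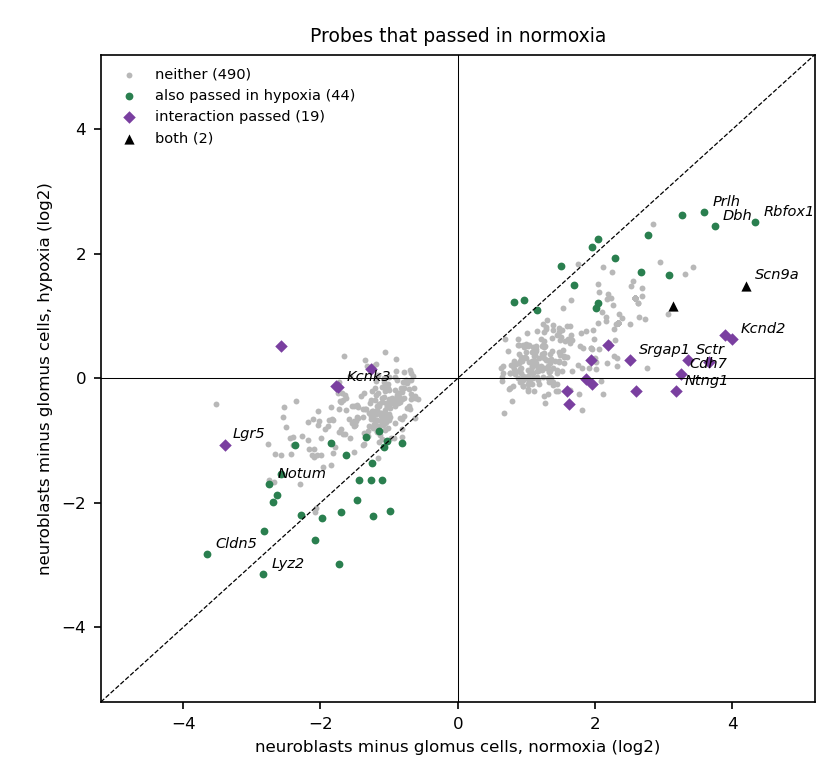
Each of the 555 probes that passed in normoxia is placed by its difference in normoxia (log2, x axis) and in hypoxia (log2, y axis), with the dashed line marking equal differences. Probes that also passed in hypoxia (green), passed the interaction (purple diamonds) or both (black triangles) are marked, and the interaction probes all lie closer to 0 in hypoxia than in normoxia.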

How the data were processed

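Gene expression was measured on Affymetrix arrays in 16 sorted samples, 4 for each of 2 populations in normoxia and hypoxia. The log2 values are those the authors deposited. Per the submitters' processing notes the Transcriptome Analysis Console was used, and its version is not given in the sources used here, nor its normalization and background step. The log2 scale was read from the range of the values, 0.87 to 13.33. The table has no detection calls.

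All 30429 probes and 16 arrays were fitted together with limma 3.58.1 in R 4.3.3, with 1 mean per group and no covariates. Benjamini-Hochberg adjustment ran over the whole table, and probes with an adjusted p under 0.05 are called passed. A gene was named only from a probe with 1 gene symbol (18511 probes, 18166 genes, while 575 probes had several and 11343 none), taking the probe with the highest mean over all arrays. Named were the 20 largest rises and 20 largest falls with no overlap between groups, the genes that passed in each list (up to 5 per list in full) and defining genes of both cell types. The gene lists and the members described were chosen with earlier results of these data known. The median level was 4.51 ± 0.10 (SD, n = 4) over glomus arrays and 4.52 ± 0.09 (SD, n = 4) over neuroblast arrays, and the number of arrays limits the precision. Tables and plots were made with Python 3.11.15, pandas 2.3.3 and matplotlib 3.10.9.

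The fit was tested on simulated data, for normoxic neuroblasts minus normoxic glomus cells over 30429 probes. Of probes changed by 1 on the log2 scale 54.4% were recovered, with 95.5% at 2 and 98.5% at 3 (68, 66 and 66 probes changed). The simulated noise was normal and independent between arrays, with the same SD for a probe in every group. Deviations shared between arrays and arrays standing apart were not built in, so these shares may not hold for the measured arrays. Alternatives were centring, quantile normalization, array weights, an intensity trend, filters on dim probes, the 8 normoxic arrays alone, blocks and leaving out each array. Same-numbered arrays of the groups had correlations of -0.00633, 0.0938, 0.191 and 0.127 in their deviations from the group means, so the numbers were not taken as pairs, while arrays 1 and 2 of the groups deviated together against arrays 3 and 4 (values in the closing section).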

Additional observations from a re-analysis of the deposited data

Results flagged for a closer look

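Of 344 groups of 4 arrays looked at, 19 had 1 array standing apart by Dixon's criterion, and chance marks about 1 in 20 groups. In glomus cells these were array 1 for Gipr (5.06), St8sia1 (6.22), Gsn (7.18) and Nav2 (5.57), array 3 for Kcnd2 (3.61), Abcc8 (5.34) and Ndufa4l2 (11.7), and array 4 for Fos (10.89) and Mir218-1 (4.74), all log2 levels. In neuroblasts they were array 1 for Cdh7 (6.57), Basp1 (7.98), Tenm2 (6.41) and Cd4 (4.05), array 2 for Gipr (3.86), Ptprd (7.83), Rbfox2 (7.74) and Dcn (10.43), array 3 for Myc (6.68) and array 4 for C1qa (5.2).

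For 16 genes the difference between neuroblasts and glomus cells was not the same in hypoxia as in normoxia by limma's interaction test. The genes were selected among those that passed in normoxia. Given as the hypoxic minus the normoxic difference (log2), the genes higher in neuroblasts in normoxia were Ntng1 (-3.38, adjusted p = 0.000166), Kcnd2 (-3.36, 0.00292), Cdh7 (-3.18, 0.00398), Sctr (-3.06, 0.00282), Scn9a (-2.71, 0.012), Srgap1 (-2.22, 0.012), Pcdh19 (-2.05, 0.0463), Actn1 (-2.04, 0.0462), Sidt1 (-1.97, 0.0151), Sema3d (-1.88, 0.0463), Chodl (-1.8, 0.012) and Dpyd (-1.66, 0.0462). Those lower in neuroblasts in normoxia were Lgr5 (2.33, adjusted p = 0.0123), Nav2 (1.66, 0.0478), Kcnk3 (1.6, 0.0462) and Scd (1.41, 0.023).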

How the results depend on the processing

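The 555 calls (303 higher, 252 lower) became 1081 (535 and 546) with array weights and 282 (151 and 131) at an adjusted p under 0.01. Leaving out 1 array gave 347 to 618 calls, 180 to 337 higher and 146 to 281 lower. With the replicate block there were 595 (317 higher, 278 lower), 445 of them among the 555, although the numbers do not pair the arrays. That block also ended the calls of 21 named genes, all among the 40 below: Abcc8, Alcam, B3gat1, C1qa, Cadm1, Cd4, Clstn2, Dcx, Fn1, Gata3, Gipr, Gng8, Gsn, Htr2a, Kcnh8, Kcnj11, Mir138-2, Mir218-2, Pcdh9, Scg2 and Scg3. A block of replicates 1 and 2 against 3 and 4, chosen after seeing the data, gave 914 (464 and 450) and ended 6 of those calls (C1qa, Cd4, Clstn2, Fn1, Gsn and Pcdh9). Across the groups, deviations of arrays on the same side of that split correlated by 0.145 on average (-0.00633 to 0.265, 8 pairs). Those on opposite sides correlated by -0.145 on average (-0.255 to 0.00777, 8 pairs). Deviations from a group's mean cancel out over its arrays, so the second average largely follows from the first and is no separate observation. Of 144 named genes that passed, 104 kept the call in every fit and 40 lost it when 1 array was left out. The sign of Chst10, which did not pass, turned to -0.01 with array weights, -0.07 without glomus array 2 and -0.12 without neuroblast array 3, and that of Dcn to -0.10 without glomus array 2 and -0.81 without neuroblast array 2, with ranges of -0.12 to 0.18 for Chst10 and -0.81 to 1.05 for Dcn when 1 array was left out. Other fits of the hypoxic comparison and the interaction were also chosen after seeing the data: quantile normalization gave 151 hypoxic calls in place of 86, and centring gave 11 interaction calls in place of 24. The cause of these shifts was not tested. With no detection calls, how far low values lie above background is not known here.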
